A study of Mus musculus with 8 samples.

Results

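The Dlx genes and the transcripts read from their opposite strands were followed through forebrain RNA of mice with Dlx1/2 mutations. They comprise 8 genes, Dlx1, Dlx1as, Dlx2, Dlx3, Dlx4, Dlx5, Dlx6 and Dlx6os1, out of 18193 genes named on the array. All probe sets annotated with only one of these symbols were taken, which gave 10 of 45037 probe sets. Dlx3 and Dlx4 have 2 probe sets each and the other genes have 1. The RNA came from basal ganglia (BG) and cortex (Ctx), and the groups were BG -/-, BG +/-, Ctx -/- and Ctx +/-, each with n = 2 arrays, 8 altogether. The labels carry the sign +/- for the groups that serve here as controls, so these also have a mutant copy, and no wild type group was analysed here. The age of the animals, the allele and the part of the locus it removes were not given in the sources used here. The labels do not tie the 2 arrays of a group to separate animals. The p-values therefore cover the spread between arrays alone, which may be technical.

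DLX proteins are homeodomain transcription factors, related to Distal-less of the fly. In the embryonic forebrain Dlx1, Dlx2, Dlx5 and Dlx6 are known from the ventral part, where progenitors and young neurons that will make GABA, the inhibitory transmitter, use them. Dlx3 and Dlx4 are known from other tissues, among them skin, teeth and placenta. The genes lie in pairs, Dlx1 with Dlx2 on chromosome 2, Dlx3 with Dlx4 on chromosome 11 and Dlx5 with Dlx6 on chromosome 6, by a RefSeq gene table. Dlx1as overlaps Dlx1 in that table, and the long non-coding RNA Dlx6os1, also known as Evf2, overlaps Dlx6. Which strand each probe set of an overlapping pair detects was not examined here.

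Signals were given on a linear scale, in array units, and their medians lay between 37.9 and 51.5. Within a group the Pearson correlation of log2 signals across probe sets was 0.973 to 0.982, and between groups it was 0.930 to 0.977. A source label names blood and adrenal medulla, against the brain regions given for each sample. Of 9 genes of ventral telencephalic neurons, 9 were higher in BG than in Ctx in +/- (11.1% of all probe sets tested were), and 7 of 7 cortical glutamatergic genes were lower (12.8% of all probe sets tested were). The summed signal of 6 adrenal medulla genes was 620 to 903 over all arrays, and that of 4 red blood cell genes 1418 to 6205. No reference samples of these tissues were used for comparison. Markers of other DLX sites (skin, bone and pharyngeal arch, 6 genes) summed to 174 to 252, and no marker was listed at 0. The arrays of the 2 genotypes also differed in sex-linked genes. Xist, which silences one X chromosome in females, lay at 2340 to 2519 on the 4 -/- arrays and at 34.2 to 67.5 on the 4 +/- arrays. Sex and genotype therefore cannot be told apart. All 8 DLX genes are on autosomes, and the part of sex in their differences was not tested.

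In the basal ganglia, transcripts of the Dlx1/2 locus and of the Dlx5/6 locus were lower in -/-. Signals were compared as log2(signal + 16), with limma fitted over all 31526 probe sets that passed a filter on dim signals and with Benjamini-Hochberg adjustment over them. A probe set passed at an adjusted p under 0.05. By this test 6 of the 10 DLX probe sets fell, against 2.23% of all probe sets tested. These were the probe sets of Dlx1, Dlx1as, Dlx2, Dlx5, Dlx6 and Dlx6os1. The filter kept 7 of the 10, and those that fell were kept through the arrays on which they are bright. Fewer DLX-expressing cells and less RNA per cell cannot be told apart in such tissue RNA.

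Of the targeted pair, Dlx1 had signals of 3.67 and 15.5 in BG -/-, against 1232 and 1237 in BG +/-. Its log2 difference was -5.65 ± 0.21 (SE, limma adjusted p = 0.000352), and the mean signal in -/- was 0.775% of that in +/-. Both -/- arrays were thus below 16, the offset added before taking logs, while the +/- arrays were nearly equal. Dlx2, its neighbour, had signals of 8.56 and 8.68 in BG -/- and of 358 and 287 in BG +/-, a log2 difference of -3.77 ± 0.16 (limma adjusted p = 0.000572). No array of one genotype reached those of the other. Dlx1as had signals of 7.84 and 2.22 in BG -/- and of 532 and 602 in BG +/-, a log2 difference of -4.80 ± 0.18 (limma adjusted p = 0.000352). Its mean in -/- was 0.887% of that in +/-. With -/- signals under the offset for both Dlx1 and Dlx1as, these shares, which include any background of the array, do not rank the transcripts.

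The Dlx5/6 locus was not targeted, yet its 3 probe sets were also lower in every BG -/- array. Their BG -/- signals were 19.8 to 71.1, against 2.22 to 15.5 at the Dlx1/2 locus. Background was not estimated, so these values do not rank the loci by the share left. Dlx5 had signals of 65.6 and 71.1 in BG -/-, against 719 and 706 in BG +/-, so that 9.60% of the mean was left. Its log2 difference was -3.11 ± 0.27 (limma adjusted p = 0.00412). The pairs of arrays differed little within each genotype. Dlx6 was dimmer, with 20.6 and 19.8 in BG -/- and 169 and 140 in BG +/-, and 13.1% of the mean was left. Its log2 difference was -2.23 ± 0.35 (limma adjusted p = 0.0152), but the call was lost with any 1 of the 4 BG arrays left out, at a limma adjusted p of 0.0875 or 0.0872 without 1 of the BG -/- arrays and of 0.081 or 0.0583 without 1 of the BG +/- arrays. With an offset of 1 the limma calls of both genes were lost as well, at an adjusted p of 0.0667 for Dlx5 and 0.122 for Dlx6.

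Dlx6os1, transcribed across Dlx6 from the other strand, fell the furthest of the 3 probe sets. It had signals of 39.6 and 26.9 in BG -/- and of 864 and 911 in BG +/-, a log2 difference of -4.21 ± 0.20 (limma adjusted p = 0.000698). In BG -/- 3.74% of its mean in +/- was left, a smaller share than for Dlx5 or Dlx6. These shares include any background of the array, which was not estimated. A second antisense transcript of Dlx6, Dlx6os2, lies outside the 8 genes and did not pass the filter. Its signals were 5.76 and 4.90 in BG -/- and 57.1 and 27.0 in BG +/-.

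Marker sums also differed between the BG genotypes. The 9 ventral neuron genes summed to 3868 to 3932 in BG -/- against 6388 to 6603 in BG +/-. Of these 9, 5 fell (2.23% of all probe sets did), with a median log2 difference of -1.21. The other 4 did not pass, among them the bright Gad1 and Isl1, at -0.41 ± 0.18 and -0.16 ± 0.16. The 7 interneuron genes of the medial ganglionic eminence summed to 5208 to 5355 in BG -/- against 4041 to 4287 in BG +/-. In that interneuron list Sst and Npy, neuropeptide genes, rose by 0.66 ± 0.13 and 1.11 ± 0.13 (limma adjusted p = 0.0254 and 0.00721), while Maf and Cxcr4 fell, at -1.55 ± 0.22 and -1.49 ± 0.14 (adjusted p = 0.0124 and 0.00485), and the median was -0.23. Other Maf probe sets passed at -1.21 and -1.28, while those at -0.97, -0.14 and -0.35 did not. The 4 measured genes of red blood cells summed to 3082 to 3227 in BG -/- against 5871 to 6205 in BG +/-. Most of this was Hbb-y, at 2908 and 2793 in BG -/- and 5819 and 5476 in BG +/-. Of the 3 tested genes of that list only Hbb-y passed. The cortical glutamatergic genes summed to 1646 to 1710 in BG -/- and to 1600 to 1617 in BG +/-, but members moved in opposite directions. Of 7 tested, 2 fell (2.23% of all probe sets did), Fezf2 at -0.68 ± 0.13 and Neurog2 at -0.56 ± 0.13 (limma adjusted p = 0.0247 and 0.0421). Neurod6, a bright member, was at 0.57 ± 0.15 and did not pass (adjusted p = 0.0635). The part of these lists in the DLX differences was not tested.

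**Figure D1:**
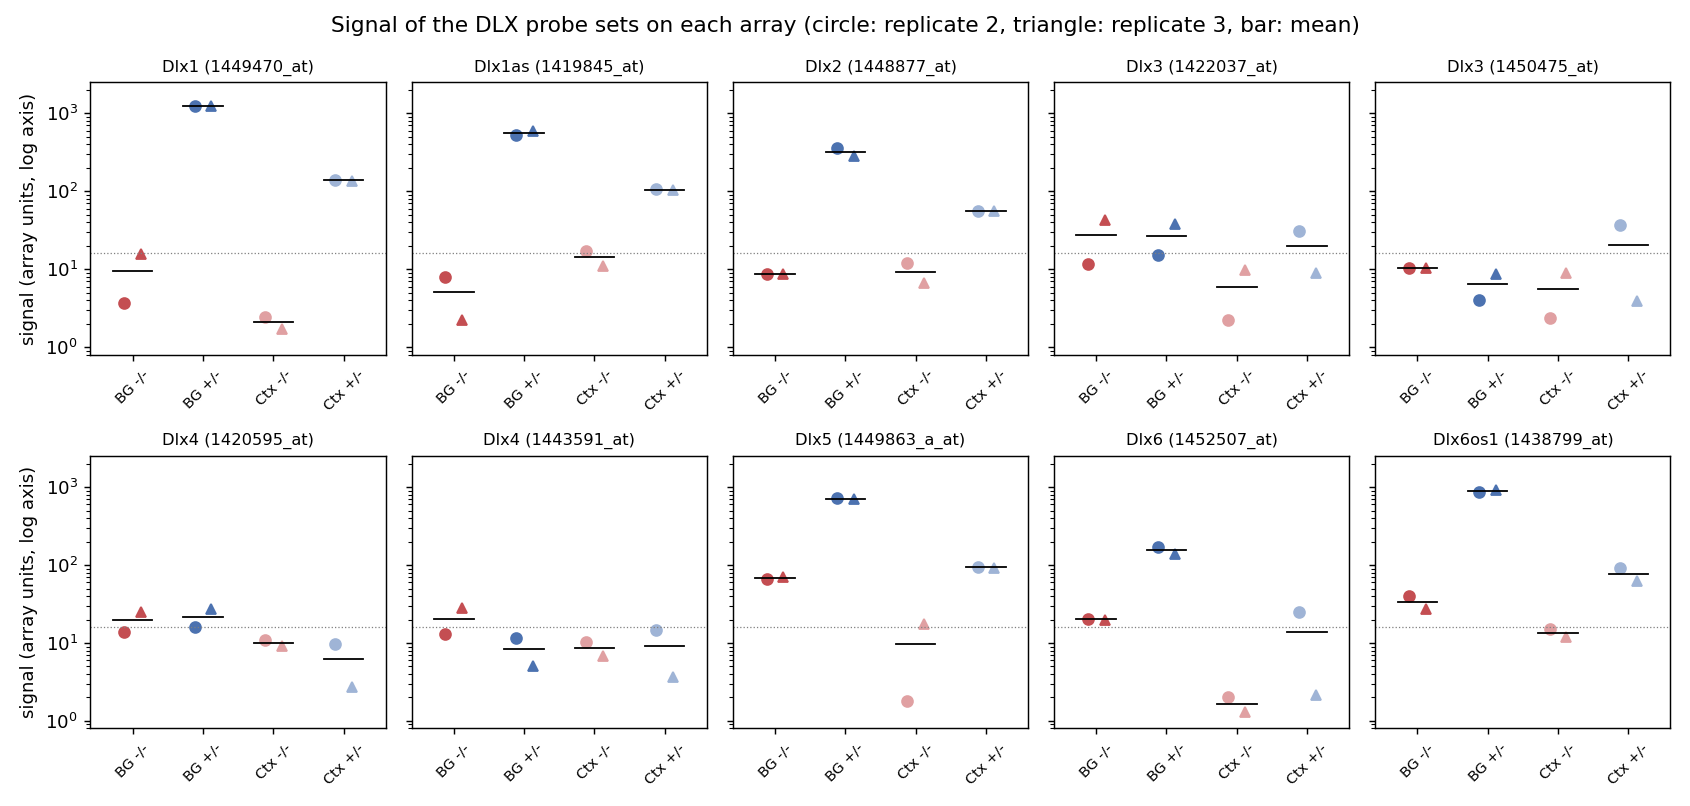
Signal of each DLX probe set on each of the 8 arrays, in array units on a log axis, with circles for replicate 2, triangles for replicate 3, a bar at the group mean and a dotted line at the offset of 16. Dlx1, Dlx1as, Dlx2, Dlx5, Dlx6 and Dlx6os1 are highest in BG +/-, while the probe sets of Dlx3 and Dlx4 lie at 42.8 or below on every array.

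Because the transcripts of 2 separate loci moved together, the sequences around their starts are shown for the genes with an entry in the RefSeq promoter table (GRCm38.p6), from 250 bases before to 50 after each start. Of the 8 genes, 3 have one: Dlx1, Dlx2 and Dlx6os1, the last with 2 starts. Capitals mark TAATT, the core bound by DLX and many other homeodomain proteins, searched on both strands, so that its reverse complement AATTA is marked too. Where both overlap, as in TAATTA, the stretch is counted once.
Dlx1 (chr2:71529195-71529494, plus strand): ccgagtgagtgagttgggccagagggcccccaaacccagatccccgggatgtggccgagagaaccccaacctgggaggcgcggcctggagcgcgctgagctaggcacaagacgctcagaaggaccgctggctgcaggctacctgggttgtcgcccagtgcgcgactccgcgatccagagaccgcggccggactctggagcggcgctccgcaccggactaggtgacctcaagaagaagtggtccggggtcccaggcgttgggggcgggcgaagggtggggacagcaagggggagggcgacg
Dlx2 (chr2:71546705-71547004, minus strand): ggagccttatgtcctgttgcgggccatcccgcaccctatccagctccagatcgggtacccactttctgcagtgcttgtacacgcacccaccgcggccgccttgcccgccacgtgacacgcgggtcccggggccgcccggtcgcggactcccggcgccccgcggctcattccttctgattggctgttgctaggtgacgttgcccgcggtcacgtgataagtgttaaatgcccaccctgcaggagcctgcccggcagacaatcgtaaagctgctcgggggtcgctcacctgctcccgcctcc
Dlx6os1, start between Dlx6 and Dlx5 (chr6:6869484-6869783, minus strand): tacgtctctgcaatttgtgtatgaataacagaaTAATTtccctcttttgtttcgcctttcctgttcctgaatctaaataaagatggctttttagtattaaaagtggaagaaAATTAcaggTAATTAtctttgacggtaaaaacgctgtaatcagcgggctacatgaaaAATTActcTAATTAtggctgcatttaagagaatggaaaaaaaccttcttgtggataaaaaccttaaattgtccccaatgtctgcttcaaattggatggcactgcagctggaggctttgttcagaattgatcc
Dlx6os1, start on the far side of Dlx6 (chr6:6861634-6861933, minus strand): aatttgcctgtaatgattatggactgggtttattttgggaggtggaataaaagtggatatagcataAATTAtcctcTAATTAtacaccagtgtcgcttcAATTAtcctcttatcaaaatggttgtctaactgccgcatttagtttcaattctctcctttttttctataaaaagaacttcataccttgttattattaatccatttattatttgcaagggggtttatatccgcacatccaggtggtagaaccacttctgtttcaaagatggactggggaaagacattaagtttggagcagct

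The start of Dlx6os1 that lies between Dlx6 and Dlx5 held the motif in 5 separate stretches, and 0.167% of 32851 promoters held as many or more. Its other start held 3 stretches, a number that 2.23% of promoters reached. At least 1 stretch was present in 27% of all promoters of this length, and these letters were not in the windows of Dlx1 and Dlx2. The windows also differ in base composition, with a GC content of 35.7% and 35.3% for Dlx6os1, 69.3% for Dlx1 and 66.3% for Dlx2, against a median of 52.7%. A match describes the letters only, and binding was not measured.

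In the cortex the same 6 transcripts were lower in both -/- arrays than in both +/- arrays, and their signals were dimmer than in BG throughout +/- tissue. For Dlx6 this order rests on 2.03 in -/- against 2.17 in +/-, both below the offset of 16. Of the 10 DLX probe sets 4 fell, against 0.178% of all probe sets tested, namely those of Dlx1, Dlx1as, Dlx2 and Dlx6os1. Arrays did not overlap for 6 of the 10, a pattern that 20.4% of all unfiltered probe sets showed in this direction (25.6% in BG, where it held for the same number). Cortical neurons that make GABA are known to come largely from the ventral forebrain and to carry Dlx transcripts.

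Dlx1 had signals of 2.42 and 1.74 in Ctx -/- and of 138 and 137 in Ctx +/-, a log2 difference of -3.09 ± 0.21 (limma adjusted p = 0.00394), with 1.51% of the mean left. Dlx2 was at 12.01 and 6.69 in Ctx -/- and at 55.3 on both Ctx +/- arrays, a log2 difference of -1.50 ± 0.16 (limma adjusted p = 0.0250). Dlx1as had 17.2 and 11.1 in Ctx -/- against 107 and 102 in Ctx +/-, at -2.01 ± 0.18 (limma adjusted p = 0.0120). For all 3 the cortical +/- arrays were close together. Dlx6os1 had 15.2 and 11.9 in Ctx -/- and 92.6 and 62.7 in Ctx +/-, at -1.65 ± 0.20 (limma adjusted p = 0.0436).

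Of the protein-coding genes of the Dlx5/6 locus, Dlx5 was just outside the threshold in cortex and Dlx6 did not pass. Dlx5 had signals of 1.82 and 17.7 in Ctx -/- against 93.9 and 92.3 in Ctx +/-. Its log2 difference was -2.16 ± 0.27 (95% interval -2.81 to -1.50, limma adjusted p = 0.0525), and without Ctx -/- replicate 3, the higher of the pair, it passed at limma adjusted p = 0.0087. It also passed with an offset of 64 (0.002), with arrays centred on the median (0.038), with the lowest 50% left out (0.0162) and with an intensity trend (0.000746). The wide gap between the 2 Ctx -/- arrays sets the error here. Dlx6 was at 2.03 and 1.29 in Ctx -/- and at 25.3 and 2.17 in Ctx +/-, so its Ctx +/- arrays differed more from each other than one of them did from Ctx -/-. Its log2 difference was -0.63 ± 0.35 (95% interval -1.46 to 0.19, limma adjusted p = 0.611).

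The cortical calls depended on how dim signals were treated. With an offset of 1 limma called 0 of 10 (adjusted p = 0.0547 for Dlx1, and 5 at an unadjusted p under 0.05), without the filter it was 2 (0.091% of all probe sets then), with only the 4 cortical arrays 1, and with any 1 of the 8 arrays left out between 0 and 2. It was 5 in each of the 4 settings under which Dlx5 passed with all arrays in the fit. Other cell markers moved with genotype in the same arrays. The medial ganglionic eminence is a ventral source of cortical interneurons. Of 6 tested genes that mark such cells, 4 fell in Ctx -/- (0.178% of all probe sets did), namely Lhx6, Maf, Sst and Nxph1. With only the 4 cortical arrays the limma calls of Maf, Sst and Nxph1 were lost (adjusted p = 0.16, 0.0729 and 0.185). The 7 listed genes summed to 481 to 548 in Ctx -/- against 1445 to 1537 in Ctx +/-. The choroid plexus list (6 genes) summed to 31.2 to 87.3 in Ctx -/- against 12060 to 13954 in Ctx +/-. Nearly all of the Ctx +/- sum was Ttr, at 11634 and 13605. Of 5 tested genes 2 were lower, Ttr and Kcne2, against 0.178% of all probe sets. The log2 difference of Kcne2 ran from -2.95 to -2.51 with any 1 of the 8 arrays left out. The call of Kcne2 was lost without either Ctx +/- array and without Ctx -/- replicate 3. The part of either list in the DLX differences was not tested.

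**Figure D2:**
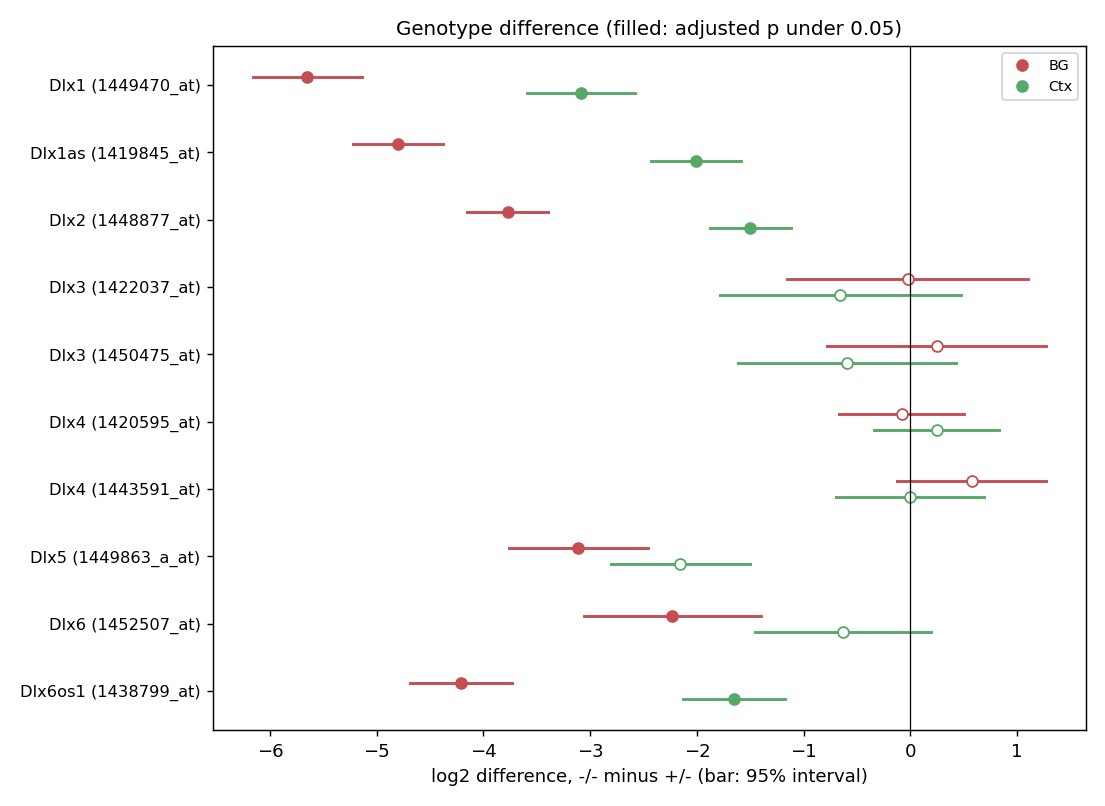
Log2 difference of each DLX probe set between -/- and +/-, in BG (red) and Ctx (green), with 95% intervals and filled points where the adjusted p was under 0.05. In BG 6 probe sets lie below 0 with filled points and in Ctx 4, while the intervals of Dlx3 and Dlx4 all include 0 (those of 1450475_at and both Dlx4 probe sets from the fit without the filter).

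Dlx3 and Dlx4 gave dim signals, and no probe set of either passed between the genotypes. The Dlx3 probe set that passed the filter, 1422037_at, had 11.7 and 42.8 in BG -/- and 15.2 and 38.3 in BG +/-, with a log2 difference of -0.03 ± 0.47 (95% interval -1.16 to 1.10). In Ctx it had 2.20 and 9.72 in -/- and 30.7 and 8.93 in +/-, a difference of -0.66 ± 0.47 (95% interval -1.79 to 0.47). The groups overlapped in both regions, and the intervals leave room for changes of more than 1 log2 unit in BG. The other Dlx3 probe set, 1450475_at, did not follow it array by array (r = 0.55 over the 8 arrays, a description) and was highest, at 36.6, on Ctx +/- replicate 2.

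Of the Dlx4 probe sets, 1420595_at had 13.9 and 25.2 in BG -/- and 15.99 and 27.2 in BG +/-. The other, 1443591_at, had 13.2 and 27.9 in BG -/- and 11.6 and 4.997 in BG +/-. They thus disagreed on whether the BG genotypes overlap. In the fit without the filter their log2 differences in BG were -0.08 ± 0.25 and 0.57 ± 0.29 (limma adjusted p = 0.894 and 0.325). In Ctx all 8 values of these probe sets were at 14.6 or below. No detection calls were used, so these low values are given as signals and not as absence.

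Whether the fall differed between the regions was tested as the BG effect minus the Ctx effect. It was more negative in BG for 4 of the 10 probe sets, against 0.0571% of all probe sets tested. These 4 had -/- signals of 39.6 or below in both regions and were brighter in BG +/- than in Ctx +/-. With the offset limiting how far such signals can fall, the test cannot tell a larger fall in BG from a higher +/- level there. The difference was -2.56 ± 0.30 for Dlx1 (limma adjusted p = 0.0359), -2.80 ± 0.25 for Dlx1as (adjusted p = 0.0237), -2.28 ± 0.22 for Dlx2 (adjusted p = 0.0267) and -2.56 ± 0.28 for Dlx6os1 (adjusted p = 0.0334). For Dlx5 it was -0.96 ± 0.39 (95% interval -1.88 to -0.03, adjusted p = 0.270) and for Dlx6 -1.60 ± 0.49 (95% interval -2.76 to -0.43, adjusted p = 0.178), neither of which passed. These calls were not stable: limma called 0 of 10 with an offset of 1 (3 at an unadjusted p under 0.05), 0 without the filter (6 unadjusted, and 0.00222% of all probe sets called) and 0 without any 1 of the 8 arrays (5 to 6 unadjusted). It called 4 with centring, quantile normalization, the lowest 50% left out or the trend, and 6 with an offset of 64. The same 4 arrays of each genotype enter the comparison of regions, which splits this difference into its parts.

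In +/- tissue, all 6 transcripts that fell were brighter in BG than in Ctx. The BG mean was 8.97 times that of Ctx for Dlx1, 5.41 times for Dlx1as, 5.84 times for Dlx2, 7.65 times for Dlx5, 11.2 times for Dlx6 and 11.4 times for Dlx6os1. The ratio of Dlx6 rests on Ctx +/- signals of 25.3 and 2.17, and its log2 difference was 2.04 or 3.22 without 1 of them. Each passed, so 6 of the 10 probe sets were higher, against 11.1% of all probe sets tested. On the log2 scale the differences ran from 2.24 ± 0.16 for Dlx2 to 3.29 ± 0.20 for Dlx6os1 (limma adjusted p of 0.000518 and 0.000338). Without regard to the test, 7 of the 10 had no overlap and were higher in BG, against 32.2% of unfiltered probe sets, Dlx4 1420595_at being the other one. The brightest cortical signal of the 6 was 138, for Dlx1, and the dimmest 2.17, for Dlx6.

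In -/- tissue, by the raw means, BG was 7.01 times Ctx for Dlx5, 12.1 times for Dlx6 and 4.61 times for Dlx1. It was 2.46 times for Dlx6os1, 0.922 times for Dlx2 and 0.355 times for Dlx1as. The ratios divide by dim Ctx -/- signals, such as 2.03 and 1.29 for Dlx6 and 1.82 and 17.7 for Dlx5. They therefore neither show whether the ratios in +/- were kept nor rank the genes. Most of the -/- signals are dim, and the offset shrinks their log2 differences. Only Dlx5 differed by the test, 1 of the 10 probe sets against 10.7% of all probe sets, which is a share near the background. The arrays of 8 of the 10 did not overlap and were higher in BG, against 38.1% of unfiltered probe sets, and among these were all 4 probe sets of Dlx3 and Dlx4. Its BG -/- arrays read 65.6 and 71.1 and its Ctx -/- arrays 1.82 and 17.7, a log2 difference of 1.78 ± 0.27 (limma adjusted p = 0.00799, and 0.0503 without BG -/- replicate 3). With an offset of 1 its difference was 3.26 in -/- and 2.92 in +/-, neither of which passed (limma adjusted p = 0.0549 and 0.0574). Dlx6os1 was at 0.73 ± 0.20 (95% interval 0.25 to 1.21, adjusted p = 0.0509) and Dlx6 at 1.03 ± 0.35 (0.21 to 1.86, adjusted p = 0.0848). For the targeted genes the intervals were -0.05 to 0.97 for Dlx1 and -0.41 to 0.34 for Dlx2. Dlx1as was lower in BG, at -0.53 ± 0.18 (adjusted p = 0.0863), and passed with each array centred on its median, at -0.81 (adjusted p = 0.0213).

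**Figure D3:**
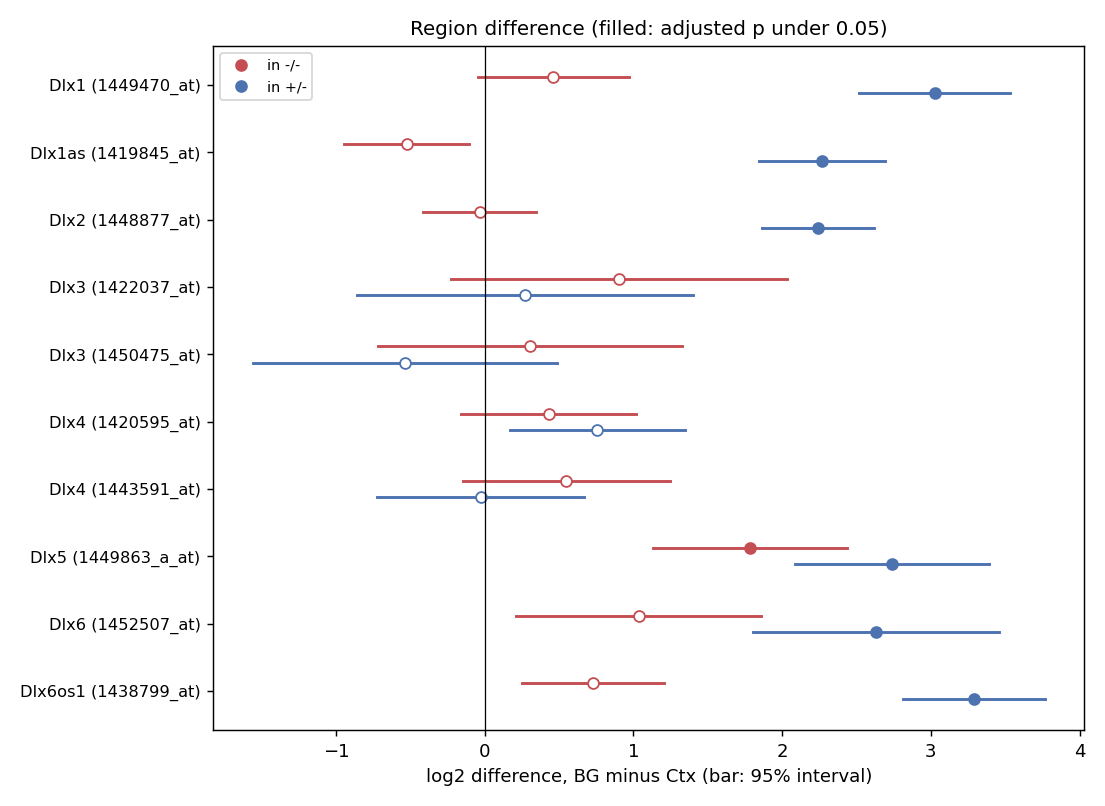
Log2 difference of each DLX probe set between BG and Ctx, in -/- (red) and in +/- (blue), with 95% intervals and filled points where the adjusted p was under 0.05. In +/- 6 probe sets are filled, from 2.24 to 3.29, and in -/- only Dlx5 is, at 1.78.

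The order of the 4 groups was not the same for all members. For Dlx1, Dlx5 and Dlx6os1 the mean signal ran from BG +/- through Ctx +/- and BG -/- down to Ctx -/-, and arrays of neighbouring groups did not overlap. Dlx1as and Dlx2 had the 2 lowest groups in the other order, with Ctx -/- above BG -/-, and for Dlx2 these overlapped. For Dlx6, BG -/- (mean 20.2) came second, ahead of Ctx +/- (13.7), and the arrays of these overlapped. The means of Dlx5 in BG -/- and Ctx +/- were close, at 68.4 and 93.1.

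Over the 8 arrays, the 6 probe sets that fell correlated with each other at 0.792 to 0.989 (Pearson, log2 scale, 15 pairs), the highest being Dlx1 with Dlx2 and the lowest Dlx1as with Dlx6. The probe sets of Dlx3 and Dlx4 correlated with these at -0.462 to 0.649. All pairs share the same arrays and the same 4 groups, so these values describe the pattern and were not tested. By the same measure the genes most like Dlx1, among 12773 others, were Elof1 at 0.991, Mrpl17 at 0.986, Svbp at 0.985, Tmem123 at 0.978 and Grb14 at 0.977. Those most like Dlx5 were Tmem267 at 0.987, Trim27 at 0.986, Slc32a1 at 0.986, Egln2 at 0.985 and Tbrg1 at 0.983. The measure reads shape and not size. Elof1 had 420 and 444 in BG -/- against 647 and 604 in BG +/-, a far smaller span than that of Dlx1. Slc32a1, the vesicular transporter that loads GABA, had a span like that of Dlx5, with 24.2 and 42.9 in BG -/- against 474 and 403 in BG +/-.

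Regulators that act with or upstream of the DLX genes in the ventral forebrain formed a list of 18 genes, of which 14 had a single-gene probe set. Each gene is counted by its brightest probe set. In BG -/- 3 of the 14 fell (2.23% of all probe sets did) and 1 rose (7.5% did), with a median log2 difference of -0.24, against 0.01 over all probe sets. Six3, a homeobox gene of striatal precursors, fell by 1.21 ± 0.17 (limma adjusted p = 0.0117), to 148 and 145 in BG -/-, against 351 and 369 in BG +/-. Its other probe set, at 0.58 ± 0.29, did not pass. Lhx8, needed for forebrain cholinergic neurons, fell by 1.06 ± 0.15 (adjusted p = 0.0121) and Sp8, a zinc finger gene of interneuron precursors, fell by 0.87 ± 0.13 (adjusted p = 0.0129). The gene that rose was Gsx1, a homeobox gene of ventral progenitors, at 1.61 ± 0.36 (adjusted p = 0.0393), named after its value was seen. All 4 calls were lost with any 1 BG array left out, at an adjusted p of 0.0547 to 0.0885 for Six3, Lhx8 and Sp8 and of 0.0635 to 0.153 for Gsx1. Gsx1 also lost its call with an offset of 1 (0.292), without the filter (0.0645) and with only the 4 BG arrays (0.0664), and Lhx8 with an offset of 1 (0.143). In Ctx -/- 1 of the 14 fell (0.178% of all probe sets did), Lhx6, a gene of migrating cortical interneurons that is also in the marker list above. It was at -3.05 ± 0.14 (adjusted p = 0.000462), its other probe set passed too at -1.34 ± 0.16, and the median of the list was -0.13, against -0.01.

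The second list held 12 genes described in the literature as targets of DLX1 or DLX2, of which 10 were tested. In BG -/- 3 fell (2.23% of all probe sets did) and 1 rose (7.5% did), with a median of -0.13. Slc32a1 fell by 3.22 ± 0.20 (limma adjusted p = 0.00165), whereas its other, dimmer probe set was at 0.20 ± 0.29. The chemokine receptors Cxcr4 and Ackr3, which steer migrating interneurons, fell, at -1.49 ± 0.14 and -1.14 ± 0.25 (adjusted p = 0.00485 and 0.0372), Ackr3 being named after its value was seen. The call of Ackr3 was lost with any 1 BG array left out (0.0939 to 0.156), with an offset of 1 (0.0646) and without the filter (0.0629), and that of Cxcr4 without either BG -/- array (0.0505 and 0.0535). Pak3, a kinase of neurite growth that DLX proteins are described to repress, rose by 1.34 ± 0.11 (adjusted p = 0.00377), as its 3 other probe sets did. In Ctx -/- 3 of 10 fell (0.178% of all probe sets did), with a median of -0.22. They were the GABA synthesis genes Gad1, at -3.55 ± 0.18 (adjusted p = 0.000833), and Gad2, at -1.74 ± 0.14 (adjusted p = 0.00756), and Slc32a1, at -1.89 ± 0.20 (adjusted p = 0.0231). Their other probe sets, at -1.29 ± 0.20, -0.43 ± 0.20 and -0.44 ± 0.29, did not pass. With any 1 cortical array left out the calls of Gad2 (adjusted p of 0.0504 to 0.108) and Slc32a1 (0.0911 to 0.206) were lost, as they were with only the 4 cortical arrays (0.1 and 0.0525).

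**Figure D4:**
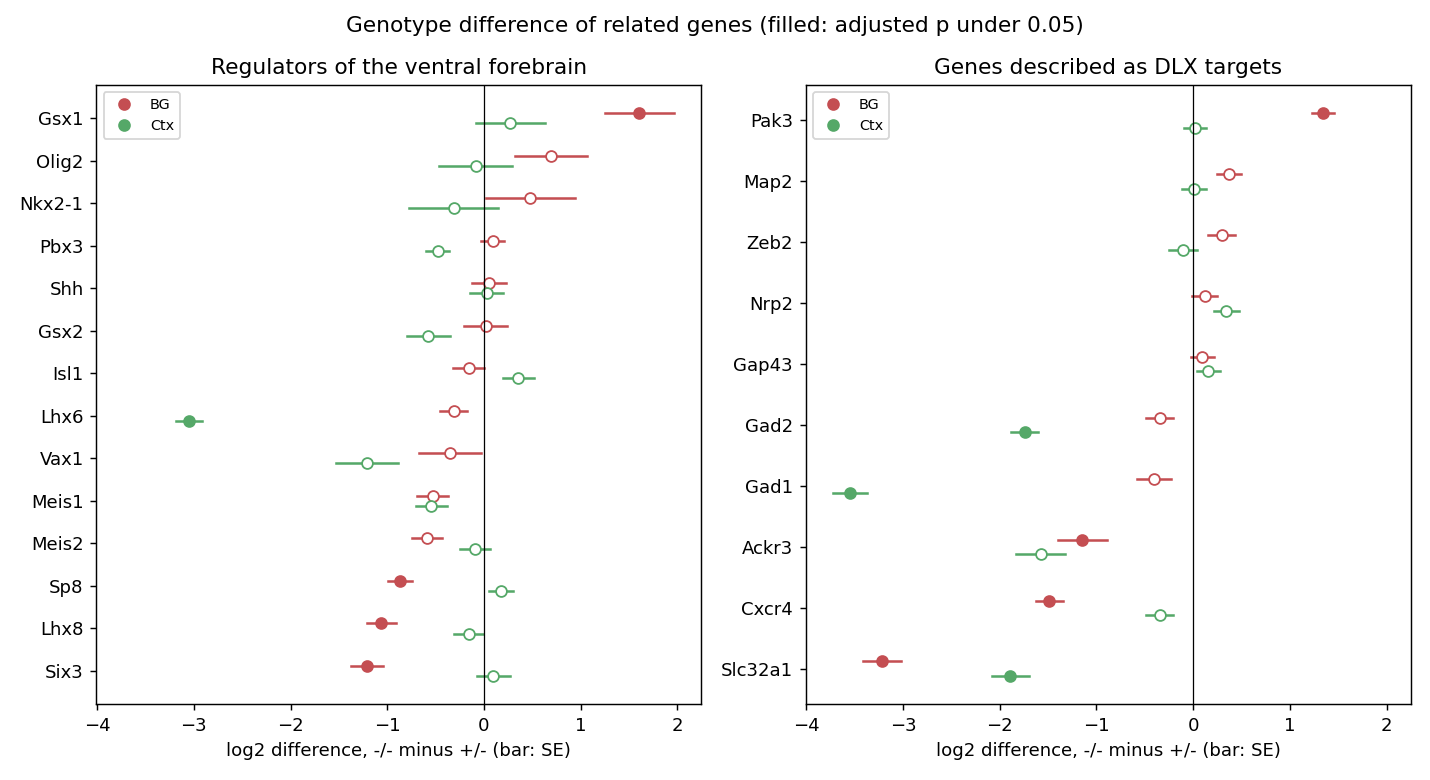
Log2 difference between -/- and +/- of the 14 regulators (left) and the 10 described targets (right) that were tested, in BG (red) and Ctx (green), with SE bars and filled points where the adjusted p was under 0.05. Slc32a1 is filled below 0 in both regions, Pak3 above 0 in BG, and Lhx6, Gad1 and Gad2 below 0 in Ctx.

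Genes next to the DLX pairs on the chromosome were taken as the 2 nearest measured genes on each side, which gave 12 genes, 11 of them tested. In BG -/- 5 had an unadjusted p under 0.05 and 4 were called with an intensity trend, as were 5889 of all 31526 probe sets. In the main limma fit 1 fell (2.23% of all probe sets did). It was Sem1, a proteasome subunit gene beside the Dlx5/6 pair. Its signals were 2953 and 2813 in BG -/- and 4349 and 4271 in BG +/-, a log2 difference of -0.58 ± 0.13 (limma adjusted p = 0.0407), against -2.23 or below for the members of that locus. The call of Sem1 was lost with an offset of 1, without the filter, with only the 4 BG arrays and with any 1 BG or Ctx -/- array left out (adjusted p of 0.0573 to 0.176), and with quantile normalization, where the difference was -0.34 (0.139). Its other probe set was at -0.47 ± 0.12 (adjusted p = 0.0531). Slc25a13, the next gene on that side, was at -1.07 ± 0.29 (adjusted p = 0.0650), and Hat1, near Dlx1 and Dlx2, at -0.55 ± 0.14 (adjusted p = 0.0597). Both passed with an offset of 64 (0.0265 and 0.0174), with the lowest 50% left out (0.0294 and 0.0258) and with the trend (0.0207 and 0.00463). In Ctx the count was 0 of 11 by limma, with and without an intensity trend, and 1 at an unadjusted p under 0.05.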

How the data were processed

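RNA of 8 mouse samples was measured on oligonucleotide arrays, and groups and replicate numbers (2 and 3) were read from the sample titles. What the authors deposited is an intensity per probe set, already summarised to 1 value. The mean with 2% trimmed at each end was 150 on every array, so they had been scaled before deposit. The software was not given in the sources used here.

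Genes were named through the platform annotation, in which 34945 probe sets have 1 symbol, 932 several and 9160 none (64 controls left out). Log2(signal + 16) was fitted in limma 3.58.1 (R 4.3.3) as 4 group means sharing 1 spread (residual degrees of freedom 4, prior 2.76). The dimmest 30% of probe sets by mean log2 were left out. The offset understates differences of dim genes. The fit was tested on simulated data.

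The DLX members, gene lists, marker lists and tests were chosen with earlier results of these data known. Named are all DLX probe sets, the 5 genes most like Dlx1 and Dlx5 (clone names left out), up to 3 genes per list and genotype comparison with the smallest p, chromosomal neighbours, and markers that passed. Alternatives covered the offset, scaling, filter, block, intensity trend, arrays in the fit and each array left out. Replicate numbers were not taken to pair arrays.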

Additional observations from a re-analysis of the deposited data

Results flagged for a closer look

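The genotype difference of 4 DLX probe sets differed between the regions by the test of the BG effect minus the Ctx effect (limma, Benjamini-Hochberg). It was -2.56 ± 0.30 for Dlx1 (SE, adjusted p = 0.0359), -2.80 ± 0.25 for Dlx1as (adjusted p = 0.0237), -2.28 ± 0.22 for Dlx2 (adjusted p = 0.0267) and -2.56 ± 0.28 for Dlx6os1 (adjusted p = 0.0334). All 4 had signals of 39.6 or below on the -/- arrays of both regions, and each was brighter in BG +/- than in Ctx +/-. The offset limits how far such signals can fall, so the test cannot tell a larger fall in BG from a higher +/- level there. With groups of 2 arrays, single arrays were not examined for outliers.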

How the results depend on the processing

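The 2 arrays of a group limit every DLX comparison. Most -/- signals were dim, which further limits the comparisons that use -/- arrays. In BG the count of DLX probe sets called (6) stayed at 4 to 6 under the alternatives run, and BG against Ctx in +/- at 5 to 6. For Ctx (4) it was 0 with an offset of 1, 2 without the filter, 2 with the replicate block, 1 with only the 4 arrays compared, 0 to 2 with 1 array left out, and 5 with an offset of 64, centring, the lowest 50% left out or an intensity trend. For the difference between regions (4) it was 0 with an offset of 1, 0 without the filter, 0 with the replicate block and 0 with any array left out. For BG against Ctx in -/- (1) it was 2 with arrays centred on the median, 2 with quantile normalization, 2 with the lowest 50% left out, 2 with the replicate block, 2 with an intensity trend, 2 with only the 4 arrays compared, and 0 to 3 with 1 array left out. The cause was not tested.

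Same-numbered arrays did not deviate together (r of -0.0262 to 0.0218 between groups), so the number was not read as a pairing. The sign turned, in no case past the threshold, for Dlx5 in the difference between regions with an offset of 1 (0.33). It also turned for Dlx2 in BG against Ctx in -/- (-0.19 to 0.12 with 1 array left out) and for Dlx3 (1422037_at) in BG (-0.57 to 0.52, positive without BG -/- replicate 2 or BG +/- replicate 3). Dlx3 turned in BG against Ctx in +/- as well (-0.18 to 0.72), as did Sem1 in Ctx (-0.19 to 0.060).

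Over all probe sets, 3070 passed in BG, 71 in Ctx and 181 for the difference between regions. In BG it was 4969 with an offset of 64, 2001 with centring, 1761 without the filter, 4786 with the lowest 50% left out, 2002 with the block, 5889 with the trend, 1024 with only the 4 arrays and 113 to 3415 with 1 array left out. In Ctx these were 146 (offset 64), 41 (offset 1), 112 (lowest 50%), 36 (block), 212 (trend), 24 (4 arrays) and 19 to 39. For the difference they were 907 (offset 64), 3 (offset 1), 53 (centring), 10 (no filter), 1033 (lowest 50%), 4 (block), 1816 (trend) and 3 to 4. BG against Ctx gave 5438 in -/- (1896 to 6592 with 1 array left out) and 7518 in +/- (3898 to 6948, and 3466 with only the 4 arrays). Centring moved the median log2 difference of BG against Ctx in -/- to -0.208, against 0.076 as deposited, and that of the difference between regions to -0.114, against 0.0485. The share of higher calls was 26.5% with centring and 50.4% with quantile normalization in that -/- comparison, against 61.8% as deposited. It was 31.6% against 46.4% in +/- and 67.9% against 90.1% for the difference between regions.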
